A study of Rattus norvegicus with 12 samples.

Results

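Genes of the complement system were examined in rat kidney after cardiopulmonary bypass, the circulation of blood through a heart-lung machine. A list of 9 genes was looked up by symbol in the deposited gene table, and 7 were found, each in 1 row: C3, Cfb, C1r, C1s, Cfi, Cd55 and Cd59. All 7 were among the 14664 genes tested, out of 30208 in the count table and 20455 with a read. C2 and C5ar1 were not analysed here. The 12 libraries came from rat kidney tissue in 3 groups of 4: CPB+Nitrite (bypass plus nitrite, from which tissues can form nitric oxide), CPB (bypass alone) and sham (the control group). Strain, age, sex, dose and sampling time are not given in the labels, and neither is whether replicates are separate animals, so p-values measure the spread between these samples only.

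Complement is a cascade of plasma and membrane proteins that marks and lyses cells and attracts leukocytes. The classical pathway starts with C1q and the proteases C1r and C1s, the lectin pathway with sugar-binding proteins, and the alternative pathway with C3 itself and factor B. All meet at C3, and regulators such as factor I, CD55 and CD59 limit the cascade on host cells. Most circulating complement is made in the liver, but kidney cells also transcribe several of these genes.

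Library totals were 16.8 to 25.8 M estimated reads (M, mega). The levels below are counts-per-million (CPM) scaled with edgeR's TMM factors. They are not divided by transcript length, so levels are compared between libraries and never between genes. Markers of the proximal tubule were present in every library (summed level of 6 markers 3697 to 4521 CPM in CPB+Nitrite, 3450 to 4319 CPM in CPB and 5284 to 6479 CPM in sham). The library CPB+Nitrite 2 stood apart, with a median correlation to its own group of 0.918 against 0.943 to 0.947 for the other CPB+Nitrite libraries. It also had the highest summed level of 6 endothelial markers (833 CPM, other libraries 122 to 249 CPM) and the lowest of 4 thick ascending limb markers (577 CPM, other libraries 4722 to 8439 CPM). The summed level of 5 urothelial markers was 112 CPM in CPB+Nitrite 1 and 164 CPM in sham 1, against 0.486 to 28.6 CPM in the other libraries. In bulk tissue, fewer cells of a type and less RNA per cell cannot be told apart.

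After bypass alone, 5 of the 7 genes were higher than in sham and none was lower. These were C3, Cfb, C1r and C1s, which drive activation, and the membrane regulator Cd55. The regulators Cfi and Cd59 did not pass the test. Calls were made with the quasi-likelihood test of edgeR, with p-values adjusted by Benjamini-Hochberg over all 14664 genes and a threshold of 0.05. Among all genes 21.7% were higher and 21.5% lower in CPB than in sham by the same test (3184 and 3148 genes, or 2281 and 4269 with libraries scaled by total counts alone). The CPB and sham libraries did not overlap, with CPB higher, for 4 of the 7 genes and for 23.5% of all genes, and with CPB lower for 0 of the 7 and for 24.8% of all genes. The median log2 change was 1.39 over the 7 genes and -0.05 over all genes. The 7 genes and the lists below were chosen with earlier results of these data known. Their contrasts with all genes, here and below, may partly follow from that choice. No gene of the 7 was lower at an unadjusted p under 0.05, nor by DESeq2 or limma voom. With bypass and nitrite, Cfb and Cd55 were higher than in sham, and none of the 7 passed against bypass alone.

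**Figure D1:**
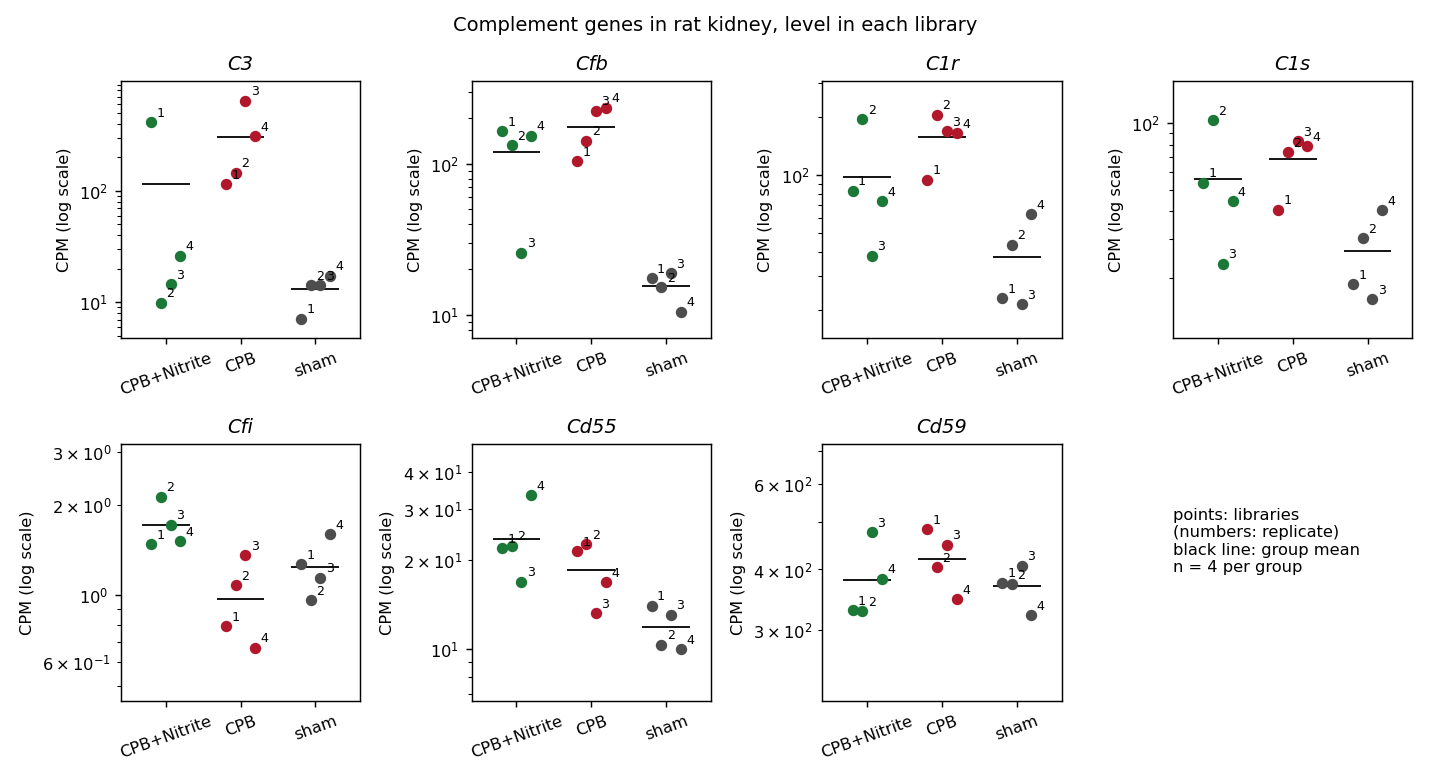
Level of each of the 7 complement genes in every library, in CPM on a log axis that is scaled separately for each gene. Points are libraries with their replicate number, black lines are group means (n = 4), and groups run CPB+Nitrite, CPB, sham; C3 in CPB+Nitrite has 1 library at 413 CPM and 3 between 9.89 and 26.2 CPM.

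C3 (ENSRNOG00000046834, chromosome 9, 2087437 to 2114429, minus strand, build mRatBN7.2) encodes the central protein of complement, whose cleavage yields the opsonin C3b and the anaphylatoxin C3a. The stretch around its start is shown because it holds a match to an element of the CCAAT/enhancer-binding proteins, whose gene Cebpb was also higher after bypass. It runs from 250 bases before to 50 after the RefSeq start, chr9:2201290-2201589, minus strand, build GRCr8, and the capitals mark the match.
C3: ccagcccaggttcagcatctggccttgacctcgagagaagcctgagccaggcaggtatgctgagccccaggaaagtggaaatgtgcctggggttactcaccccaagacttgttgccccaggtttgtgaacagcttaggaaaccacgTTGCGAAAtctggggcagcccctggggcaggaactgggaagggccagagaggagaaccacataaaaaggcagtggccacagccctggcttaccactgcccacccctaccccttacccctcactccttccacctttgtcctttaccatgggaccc
C3 was at 413, 9.89, 14.5 and 26.2 CPM in CPB+Nitrite libraries 1 to 4, at 115, 145, 648 and 311 CPM in CPB libraries 1 to 4, and at 7.15, 14.2, 14.2 and 17.3 CPM in sham libraries 1 to 4. All CPB libraries lay above all sham libraries. CPB+Nitrite 1 lay within the CPB range, CPB+Nitrite 2 and 3 within the sham range, and CPB+Nitrite 4 above sham and below CPB. The log2 change in CPB over sham was 4.53 with a standard error of 1.14, a 23.1-fold difference (adjusted p = 0.00839, edgeR). Leaving out CPB 3 gave 3.85 (adjusted p = 0.0238).

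The comparisons of C3 in CPB+Nitrite changed most without 1 library. The fitted log2 change was -1.39 in CPB+Nitrite over CPB (standard error 1.0, adjusted p = 0.354, edgeR) and 3.13 in CPB+Nitrite over sham (standard error 1.07, adjusted p = 0.0920). Without CPB+Nitrite 1 they were -4.17 (adjusted p = 0.00583) and 0.35 (adjusted p = 0.734). The difference from CPB was -0.72 without CPB 3, and the difference from sham passed without CPB+Nitrite 2 (3.52, adjusted p = 0.0395) or CPB+Nitrite 3 (3.5, adjusted p = 0.0341).

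C3 is a major liver product, so markers of hepatocytes were read beside it. Of 7 such markers, albumin (Alb) was at 0 to 4.09 CPM, transthyretin (Ttr) at 0 to 0.521 CPM and fetuin (Ahsg) at 0 to 0.112 CPM over all 12 libraries. Of the 4 with enough reads to test, 2 were higher in CPB than in sham: transferrin (Tf; log2 change 1.09, adjusted p = 0.0211, edgeR) and Serpina1 (2.90, adjusted p = 0.00574). Among all genes 21.7% were higher. Serpina1 was at 0.81 to 2.17 CPM in CPB and 0 to 0.335 CPM in sham. The summed level of the 7 markers was 115 to 282 CPM in CPB+Nitrite, 179 to 444 CPM in CPB and 116 to 163 CPM in sham, and nearly all of it was Tf, which was at 437 CPM in CPB 3 and 278 CPM in CPB+Nitrite 1. Alb was highest in CPB+Nitrite 4, where C3 was 26.2 CPM. The part of hepatocyte RNA in C3 was not tested. CPB+Nitrite 1, the library high in C3, was also the highest of its group in urothelial markers (112 CPM, others 2.53 to 14.3 CPM), and their part in its C3 level was not tested.

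Cfb (ENSRNOG00000051235, chromosome 20, 3951474 to 3976505, plus strand, mRatBN7.2) encodes factor B, which supplies the protease of the alternative pathway convertase. Cfb was at 165, 133, 25.8 and 154 CPM in CPB+Nitrite, at 104, 142, 225 and 236 CPM in CPB and at 17.5, 15.2, 18.9 and 10.5 CPM in sham. Every library with bypass, with or without nitrite, was above every sham library, and CPB+Nitrite 3 was nearest to sham. The log2 change was 3.51 in CPB over sham (standard error 0.49, adjusted p = 0.00101, edgeR), an 11.4-fold difference and the smallest adjusted p among the 7 genes in that comparison. It was 2.94 in CPB+Nitrite over sham (standard error 0.48, adjusted p = 0.0242) and -0.57 in CPB+Nitrite over CPB (standard error 0.44, adjusted p = 0.397).

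The difference in Cfb between CPB+Nitrite and sham lost its call without sham 1 (3.0, adjusted p = 0.0771), sham 2 (2.93, adjusted p = 0.108), sham 4 (2.79, adjusted p = 0.0974) or CPB+Nitrite 4 (2.79, adjusted p = 0.0625), with a log2 change of at least 2.79 each time. The interval of the Cfb row spans 25032 bases, against 5868 for Cfb in RefSeq (GRCr8), where C2 is the neighbouring gene, 264 bases away. Whether reads of C2 are counted in the Cfb row was not tested.

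C3 and Cfb did not move together in every library with nitrite. CPB+Nitrite 2 and 4 had Cfb at 133 and 154 CPM, within the CPB range of 104 to 236, and C3 at 9.89 and 26.2 CPM, below the lowest CPB library (115 CPM). CPB+Nitrite 3 was low in both and CPB+Nitrite 1 high in both. Over the 12 libraries the Pearson correlation of their log2 CPM was 0.753, and 0.454 after each group's mean was subtracted.

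**Figure D2:**
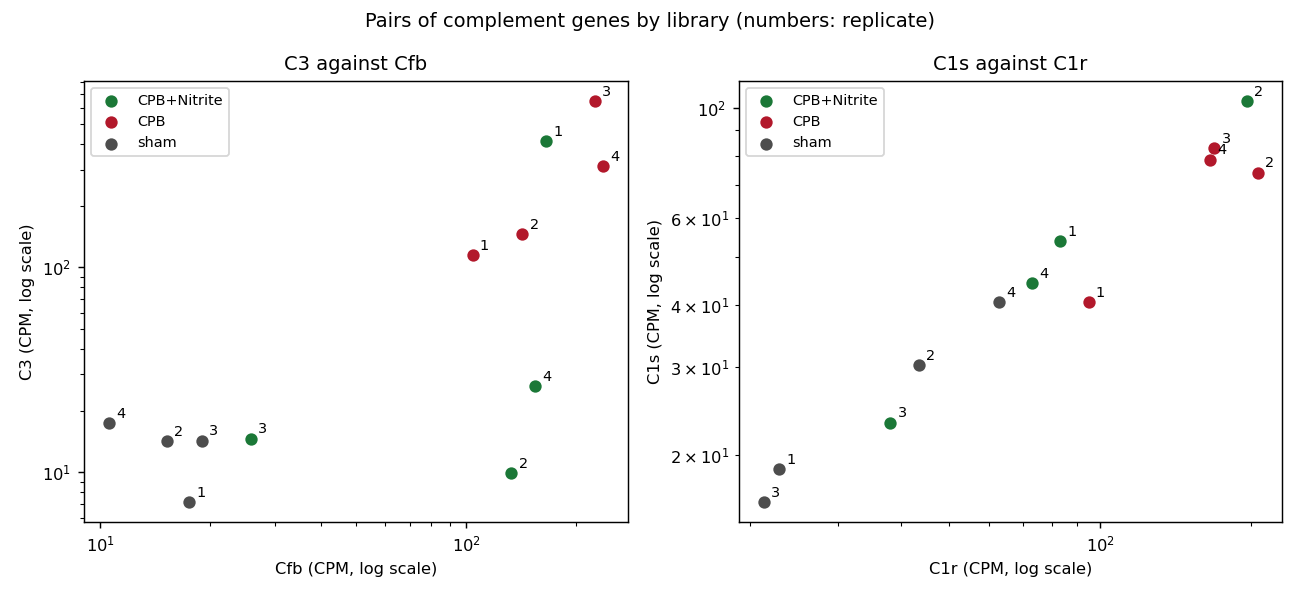
C3 against Cfb (left) and C1s against C1r (right) in each of the 12 libraries, both axes in CPM on log scales, coloured by group and numbered by replicate. CPB+Nitrite 2 and 4 lie at CPB levels of Cfb and at or near sham levels of C3, while C1s follows C1r, with the 4 CPB libraries shifted toward C1r.

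C1r and C1s encode the serine proteases of the C1 complex. C1r is activated first and cleaves C1s, which cleaves C4 and C2. The genes are neighbours on chromosome 4, C1r on the plus strand (ENSRNOG00000011796, 157412692 to 157423484) and C1s on the minus strand (ENSRNOG00000011971, 157430117 to 157442303, mRatBN7.2), with 6632 bases between their ends. The start of C1r is shown because its window is the other of the 4 searched that matched the same element, on the opposite strand and in capitals (chr4:159098763-159099062, plus strand, GRCr8, RefSeq).
C1r: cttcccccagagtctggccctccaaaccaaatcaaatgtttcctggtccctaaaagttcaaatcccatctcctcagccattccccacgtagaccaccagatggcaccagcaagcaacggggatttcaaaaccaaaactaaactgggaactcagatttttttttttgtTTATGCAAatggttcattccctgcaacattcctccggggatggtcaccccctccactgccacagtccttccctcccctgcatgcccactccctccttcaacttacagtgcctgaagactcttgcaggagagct
C1r was at 83.2, 196, 38.1 and 73.0 CPM in CPB+Nitrite, at 94.7, 206, 169 and 166 CPM in CPB and at 22.9, 43.5, 21.3 and 62.7 CPM in sham. C1s was at 53.8, 103, 23.2 and 44.3 CPM in CPB+Nitrite, at 40.6, 73.9, 82.9 and 78.5 CPM in CPB and at 18.7, 30.3, 16.1 and 40.6 CPM in sham. For both genes all CPB libraries lay above all sham libraries, for C1s only just (40.61 CPM in CPB 1 and 40.56 CPM in sham 4). CPB+Nitrite spread from within the sham range to the level of CPB or above, highest in CPB+Nitrite 2 and lowest in CPB+Nitrite 3.

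C1r rose by 2.08 on the log2 scale in CPB over sham (standard error 0.48, adjusted p = 0.00563, edgeR) and C1s by 1.39 (standard error 0.42, adjusted p = 0.0188). The C1s call was lost without sham 1 (1.25, adjusted p = 0.0547). In CPB+Nitrite over sham the changes were 1.38 (adjusted p = 0.0915) and 1.09 (adjusted p = 0.119), and both passed without CPB+Nitrite 3 (1.64 with adjusted p = 0.0216 for C1r and 1.35 with adjusted p = 0.0258 for C1s). In CPB+Nitrite over CPB they were -0.70 (adjusted p = 0.316) and -0.30 (adjusted p = 0.640). Without CPB+Nitrite 2 the C1r change was 0.79 over sham and -1.29 over CPB, and neither passed.

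C1r and C1s varied together from library to library. The correlation of their log2 CPM was 0.978 over the 12 libraries and 0.981 with group means subtracted, as a description of libraries that share depth and group. Their changes were of unequal size. The log2 ratio of C1s to C1r, relative to the sham mean, was -0.17, -0.47, -0.25 and -0.26 in CPB+Nitrite, -0.76, -1.02, -0.56 and -0.61 in CPB and 0.17, -0.06, 0.05 and -0.17 in sham. All CPB libraries lay below every other library, and CPB+Nitrite overlapped sham only at its highest library.

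Fibroblasts and endothelium transcribe C1r and C1s, and the summed levels of their markers were read beside these genes. The 7 fibroblast and pericyte markers summed to 157 to 421 CPM in CPB+Nitrite, 87.9 to 137 CPM in CPB and 109 to 278 CPM in sham, and the 6 endothelial markers to 130 to 833 CPM, 122 to 147 CPM and 122 to 231 CPM in the same order of groups. In CPB over sham 0 of the 7 fibroblast and pericyte markers were higher and 2 lower by edgeR. These were Acta2 (log2 change -2.61, adjusted p = 0.00759) and Notch3 (-1.38, adjusted p = 0.0048). Of the 6 endothelial markers 1 was higher (Cdh5, 1.34, adjusted p = 0.0118). There 2 were lower, Tek (-2.68, adjusted p = 0.0261) and Emcn (-2.45, adjusted p = 0.0471). Of all genes 21.7% were higher and 21.5% lower. CPB+Nitrite 2 had the highest C1r and C1s of its group and also the highest sums of both lists (421 and 833 CPM). The part of these cells in the C1r and C1s values of any group was not tested.

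Factor I, CD55 and CD59 restrain complement at different steps. Cfi (ENSRNOG00000053400, chromosome 2, 218387990 to 218430561, plus strand, mRatBN7.2) encodes factor I, the protease that inactivates C3b and C4b. It had 10 to 58 reads per library, so its values carry the widest counting error of the 7 genes. Cfi was at 1.48, 2.13, 1.71 and 1.51 CPM in CPB+Nitrite, at 0.79, 1.08, 1.36 and 0.67 CPM in CPB and at 1.27, 0.966, 1.14 and 1.60 CPM in sham. All CPB+Nitrite libraries lay above all CPB libraries, and sham overlapped both. Its log2 change was 0.81 in CPB+Nitrite over CPB (standard error 0.31, adjusted p = 0.118, edgeR), -0.35 in CPB over sham (adjusted p = 0.385) and 0.46 in CPB+Nitrite over sham (adjusted p = 0.349).

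Cd55 (ENSRNOG00000003927, chromosome 13, 41857395 to 41885831, minus strand, mRatBN7.2) encodes decay-accelerating factor, a membrane protein that takes apart C3 convertases. Cd55 was at 22.0, 22.4, 16.9 and 33.3 CPM in CPB+Nitrite, at 21.5, 22.7, 13.2 and 16.8 CPM in CPB and at 14.0, 10.3, 13.0 and 9.96 CPM in sham. The CPB+Nitrite libraries were all above sham, while CPB 3 lay within the sham range. The log2 change was 1.0 in CPB+Nitrite over sham (standard error 0.23, adjusted p = 0.0404, edgeR), 0.65 in CPB over sham (standard error 0.23, adjusted p = 0.0389) and 0.35 in CPB+Nitrite over CPB (adjusted p = 0.316). Both calls were near the threshold.

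The Cd55 call in CPB over sham was lost without sham 2, sham 3, sham 4, CPB 1, CPB 2 or CPB 4 (0.54 to 0.70, adjusted p 0.054 to 0.104), and with total counts as scaling (0.47, adjusted p = 0.121). The call in CPB+Nitrite over sham was lost without any 1 of 10 of the 12 libraries (0.78 to 1.09, adjusted p 0.0502 to 0.129) and held only without CPB+Nitrite 2 or 3.

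Cd59 (ENSRNOG00000042821, chromosome 3, 90459162 to 90478847, plus strand, mRatBN7.2) encodes the membrane inhibitor of the lytic complex. RefSeq (GRCr8) names the gene of this row Cd59b. Cd59 was at 330, 328, 478 and 383 CPM in CPB+Nitrite, at 484, 404, 450 and 348 CPM in CPB and at 376, 373, 407 and 322 CPM in sham. The groups overlapped in every comparison. The log2 changes were 0.19 in CPB over sham (standard error 0.16, adjusted p = 0.357, edgeR), -0.15 in CPB+Nitrite over CPB (adjusted p = 0.545) and 0.04 in CPB+Nitrite over sham (adjusted p = 0.893), the last of which was -0.04 with total counts as scaling.

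**Figure D3:**
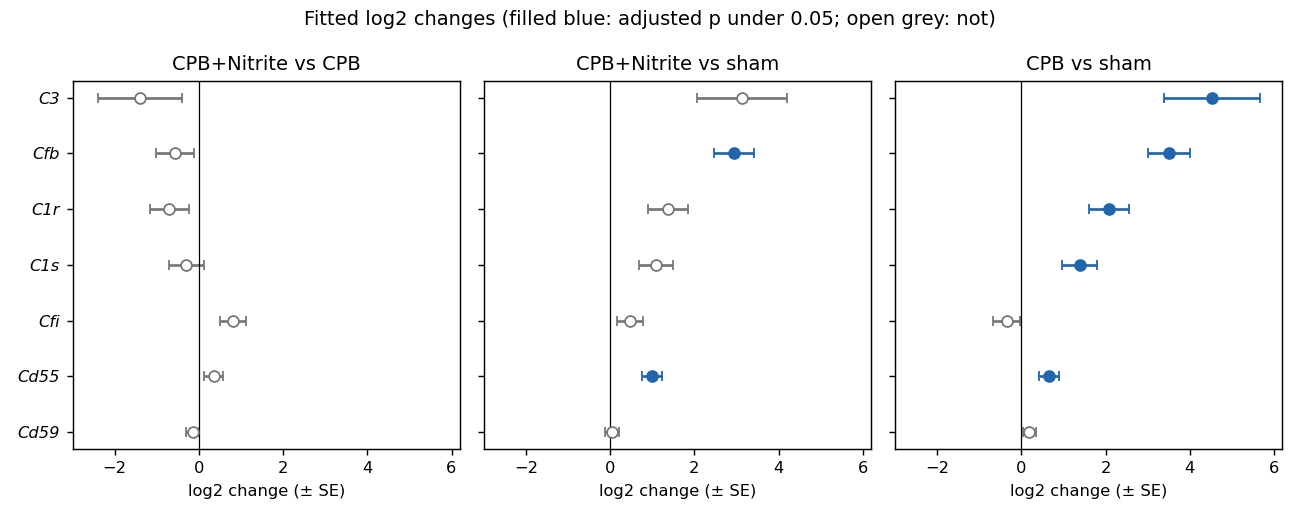
Fitted log2 change of each of the 7 genes in CPB+Nitrite over CPB, CPB+Nitrite over sham and CPB over sham, with standard errors as bars (n = 4 per group, edgeR). Filled points passed an adjusted p of 0.05: 0, 2 and 5 genes in that order.

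Ratios within each library set C3 and Cfb against the regulators. The log2 ratio of C3 to Cd59, relative to the sham mean, averaged 1.46 ± 2.55 in CPB+Nitrite, 4.08 ± 1.19 in CPB and 0 ± 0.62 in sham (SD, n = 4 each). For C3 to Cd55 it was 0.52 ± 2.44 in CPB+Nitrite, 3.63 ± 1.49 in CPB and 0 ± 0.77 in sham. For Cfb to Cfi it was 2.20 ± 1.34 in CPB+Nitrite, 3.84 ± 0.67 in CPB and 0 ± 0.62 in sham. In each ratio every CPB library was above every sham library. CPB+Nitrite 1 stood at 5.19 for C3 to Cd59, and the other CPB+Nitrite libraries at -0.18, -0.17 and 1.0.

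Between bypass with nitrite and bypass alone, none of the 7 genes passed edgeR's test, as none of all genes did (0%; 4315 genes had an unadjusted p under 0.05). At that unadjusted level 1 of the 7 was below the threshold, Cfi. DESeq2 called 2235 genes and limma voom 1, and neither called any of the 7. The groups did not overlap for 1 of the 7 genes with CPB+Nitrite higher, against 6.44% of all genes, and for 0 of the 7 with CPB+Nitrite lower, against 6.27% of all genes. The median log2 change was -0.30 over the 7 genes and 0.05 over all genes. Without CPB+Nitrite 1, 2816 genes passed and C3 was the 1 of the 7 among them.

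Between bypass with nitrite and sham, 2 of the 7 genes were higher (Cfb and Cd55) and 0 were lower, with 3.85% of all genes higher and 0.955% lower. The groups were apart with CPB+Nitrite higher for the same genes and for 5.64% of all genes, and with CPB+Nitrite lower for 0 of the 7 and 5.87% of all genes. All 7 fitted changes were positive, with a median of 1.09 (0.04 over all genes). Of the 7, 5 had an unadjusted p under 0.05, as did 4015 of all 14664 genes. The number of the 7 called higher was 0 to 5 with 1 library left out, 4 by DESeq2 and 2 by limma voom. Over all genes, 565 were higher by edgeR, 1434 by DESeq2 and 1599 by limma voom. The comparisons share groups, so they are not independent of each other.

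The rest of the complement system was read from lists of 53 genes, 37 of them tested, of which 30 were not among the 7. In CPB over sham, 7 of the 30 were higher and 5 lower (21.7% and 21.5% of all genes), with a median log2 change of 0.08 against -0.05 over all genes. With 1 library left out these counts were 4 to 7 higher and 2 to 6 lower (4 higher and 4 lower without sham 1 or sham 2, 4 and 2 without CPB 3), and with total counts as scaling 4 and 7. The count higher among the 30 was thus near that of all genes.

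In the classical and lectin list, 3 of 11 tested genes were higher in CPB than in sham and 2 lower. These counts are near the 21.7% and 21.5% of all genes. C4a, C1r and C1s were higher, 2 lectin pathway genes were lower and no chain of C1q passed. C4a, a C4 gene whose product C1s cleaves, averaged 152 ± 70.1 CPM in CPB+Nitrite, 325 ± 42.4 CPM in CPB and 141 ± 19.0 CPM in sham (SD, n = 4 each; log2 change 1.21 in CPB over sham, adjusted p = 0.00904, edgeR). Its near copy C4b did not pass (-0.91, adjusted p = 0.312), and reads may be split between them. C1qa, a chain of C1q made by macrophages, averaged 21.3 ± 4.37 CPM in CPB+Nitrite, 19.8 ± 3.95 CPM in CPB and 16.8 ± 6.27 CPM in sham (adjusted p = 0.485 in CPB over sham). In that comparison the other chains C1qb (log2 change -0.19, adjusted p = 0.623) and C1qc (-0.56, adjusted p = 0.128) did not pass either. C1qc was called lower without sham 3 (-0.79, adjusted p = 0.017). The mannose-binding lectin Mbl1 fell by 0.93 on the log2 scale in CPB (adjusted p = 0.0180, or 0.0506 without sham 3). The lectin pathway protease Masp1 fell by 1.45 (adjusted p = 0.0261), a call lost without sham 4 (-0.92, adjusted p = 0.102), CPB 1 (adjusted p = 0.0656) or CPB 3 (adjusted p = 0.0710).

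In the alternative pathway list of 4 genes, C3 and Cfb rose, Cfd fell and properdin (Cfp) did not pass (0.37, adjusted p = 0.227, edgeR) in CPB over sham. Of all genes 21.7% rose and 21.5% fell. Cfd encodes factor D or adipsin, the protease that cleaves factor B and a gene of adipocytes. Cfd was at 9.47, 19.2, 0.49 and 0.356 CPM in CPB+Nitrite, at 1.54, 0.162, 0.283 and 0.067 CPM in CPB and at 59.0, 14.1, 0.45 and 0.338 CPM in sham. The groups overlapped. Its log2 change in CPB over sham was -5.03 (adjusted p = 0.0319), and -3.16 (adjusted p = 0.129) without sham 1, the library with the highest summed level of 5 adipocyte markers (339 CPM, other libraries 56.2 to 143 CPM). It was also lost without CPB 2 (adjusted p = 0.0788), CPB 3 (adjusted p = 0.0790) or CPB 4 (adjusted p = 0.0788), and was -6.69 without CPB 1. The part of adipose tissue in Cfd was not tested.

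In the terminal pathway list, 1 of 5 tested genes was higher in CPB than in sham, 1 was lower and 3 did not pass. These counts are near the 21.7% higher and 21.5% lower of all genes. C5, the precursor of the anaphylatoxin C5a, was higher (0.81, adjusted p = 0.0251, edgeR). C8g, the gamma chain of C8 in the lytic complex, was lower (-1.19, adjusted p = 0.0107). The C5 call was lost without sham 1 (0.71), sham 2 (0.77), CPB 3 (0.67) or CPB 4 (0.77), at adjusted p 0.0589 to 0.0786.

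Among 11 tested regulators 5 rose in CPB over sham, Cd55 and 4 others, and none fell by edgeR (1 fell by DESeq2 and by limma voom). Of all genes 21.7% rose and 21.5% fell by edgeR. Of these 11, 6 had an unadjusted p under 0.05, the sixth being Thbd (-1.09, adjusted p = 0.0583), the thrombomodulin gene. Of all 14664 genes 7719 were under that level, so the 6 of 11 is near the share of all genes. By edgeR, Thbd was called lower without CPB 1 (-1.44, adjusted p = 0.0274), CPB+Nitrite 1 (adjusted p = 0.0427) or CPB+Nitrite 2 (adjusted p = 0.049). Clu, which encodes clusterin, an inhibitor of the lytic complex and a tubular injury gene, averaged 317 ± 175 CPM in CPB+Nitrite, 567 ± 361 CPM in CPB and 104 ± 14.7 CPM in sham (log2 change 2.44 in CPB over sham, adjusted p = 0.00258). C4bpa, a chain of the C4b-binding protein, rose by 3.91 (adjusted p = 0.0105; 4.64 without sham 1) from low levels, 0.948 to 7.31 CPM in CPB and 0 to 0.559 CPM in sham. In CPB+Nitrite, C4bpa was at 2.75 CPM in library 1, which also had the highest C3, and at 0.22 to 0.882 CPM in the others.

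Cd46, a membrane cofactor of factor I, rose by 0.79 in CPB over sham (adjusted p = 0.0144). Serping1, the inhibitor of C1r and C1s, rose by 0.92 (adjusted p = 0.0422), a call lost without any 1 sham library or without CPB 3 or CPB 4 (0.69 to 0.97, adjusted p 0.0665 to 0.134). The count of regulators that rose was 3 without sham 2, sham 3, sham 4 or CPB 4, and 2 with total counts as scaling.

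Among 6 tested receptors, Itgam, a subunit of complement receptor CR3 on neutrophils and macrophages, rose in CPB over sham (0.99, adjusted p = 0.0245), and C3ar1, the receptor of C3a, fell (-1.48, adjusted p = 0.0470). Both calls were near the threshold. Itgam lost its call without sham 1, 2 or 3 or CPB 2 or 3 (0.90 to 1.0, adjusted p 0.0547 to 0.0654), and C3ar1 without sham 2 or 4, CPB 2, 3 or 4 or CPB+Nitrite 1 or 4 (-1.63 to -1.24, adjusted p 0.0501 to 0.119). C3ar1 was low, at 0.201 to 0.988 CPM in CPB and 0.859 to 2.27 CPM in sham. Beside Itgam, 4 of 8 tested neutrophil markers were higher in CPB and 1 lower. The 9 neutrophil markers summed to 18.3 to 28.4 CPM in CPB+Nitrite, 17.6 to 24.0 CPM in CPB and 5.75 to 12.8 CPM in sham. Of 8 tested macrophage markers 1 was higher in CPB (Cd14, log2 change 1.97, adjusted p = 0.00152) and 2 were lower (Csf1r, -2.61, adjusted p = 0.00263, and Mrc1, -2.45, adjusted p = 0.00419). Of all genes 21.7% were higher and 21.5% lower, so the macrophage counts are near those shares. The 9 macrophage markers summed to 93.1 to 115 CPM in CPB+Nitrite, 71.1 to 91.1 CPM in CPB and 51.3 to 119 CPM in sham. The part of either cell type in Itgam and C3ar1 was not tested.

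None of these 30 other genes passed edgeR's test in CPB+Nitrite over CPB, as none of all genes did. At an unadjusted p under 0.05 there were 7 of the 30, and 4315 of all 14664 genes. DESeq2 called 1 of the 30 higher and 1 lower (1347 and 888 of all genes), and limma voom called 0. Without CPB+Nitrite 1, edgeR called 1 higher and 3 lower (1710 and 1106 of all genes). None of the 30 passed in CPB+Nitrite over sham, where 3.85% of all genes were higher and 0.955% lower. There 3 had an unadjusted p under 0.05, and 4015 of all 14664 genes did. DESeq2 called 3 (1434 of all genes higher and 710 lower) and limma voom 2 (1599 and 1271). With edgeR, 2 were higher without CPB+Nitrite 2 (1324 of all genes). Without CPB+Nitrite 3, 2 were higher and 1 lower (1625 and 1355 of all genes). C4a was at 197, 57.8, 213 and 142 CPM in CPB+Nitrite, each below the lowest CPB library (279 CPM). Its log2 change over CPB was -1.09 (adjusted p = 0.0631, edgeR) and passed without CPB+Nitrite 1 (-1.24, adjusted p = 0.0278). The groups were apart the other way for Thbd (1.89, adjusted p = 0.0568), C1qb (0.50, adjusted p = 0.270) and C1qc (0.82, adjusted p = 0.0939). Thbd also passed without CPB+Nitrite 1 (2.11, adjusted p = 0.0123). Of all genes 6.44% were apart with CPB+Nitrite higher and 6.27% with CPB+Nitrite lower.

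**Figure D4:**
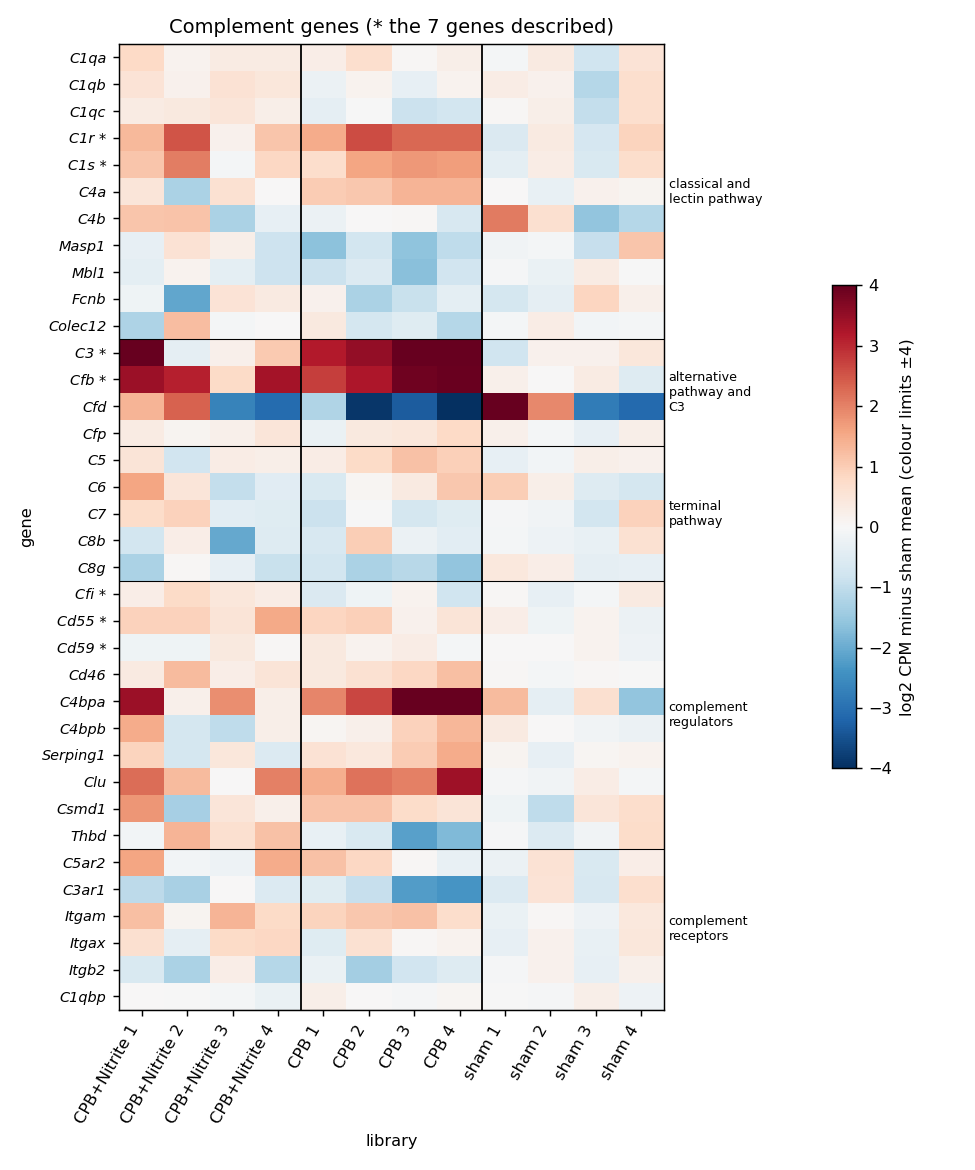
Log2 CPM minus the sham mean of 36 of the 37 tested complement genes (rows, by list) in the 12 libraries (columns, CPB+Nitrite, CPB, sham), red higher and blue lower, with colours limited at 4 and an asterisk on the 7 genes. C3, Cfb, C1r and C1s are red in all 4 CPB libraries, and among CPB+Nitrite libraries C3 is strongly red in library 1 alone while Cfb is in libraries 1, 2 and 4.

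Cytokines and transcription factors known to induce complement genes were read from a list of 11 genes, 9 of them tested. In CPB over sham 8 of the 9 rose and 0 fell (21.7% and 21.5% of all genes), with a median log2 change of 1.97 (-0.05 over all genes). Nfkb1, a subunit of NF-kappaB, rose by 2.04 (adjusted p = 0.00107), and its partner Rela by 1.37 (adjusted p = 0.00109). The cytokine gene Il6 rose by 5.62 (adjusted p = 0.00133; 7.64 without sham 3), Cebpb by 1.97 (adjusted p = 0.00157) and the interferon-response factor gene Irf1 by 3.97 (adjusted p = 0.00223). Tnf was the 1 that did not pass (1.10, adjusted p = 0.247). In CPB+Nitrite over sham 5 of the 9 were higher (3.85% of all genes), and with 1 library left out 0 to 8 were: 0 without sham 1, 2 or 4 or CPB+Nitrite 4, 1 without CPB+Nitrite 1, 2 without any 1 CPB library and 8 without CPB+Nitrite 2 or 3. Against CPB 0 of the 9 passed (2 at an unadjusted p under 0.05, 0 by DESeq2 and limma voom, 2 lower without CPB+Nitrite 1).

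Promoter windows of 300 bases were held for 4 of the 7 genes (C3, C1r, Cfi and Cd55) and searched on both strands. The element of the CCAAT/enhancer-binding proteins, TTGCNNAA, was found once in C3 (TTGCGAAA, 104 to 97 bases before the start) and once in C1r on the opposite strand (printed above as TTATGCAA, 83 to 76 bases before the start). It was in neither the Cfi nor the Cd55 window, and 10.6% of 33469 rat windows hold it. The interferon-gamma activated site TTCNNNGAA (8.87% of windows), the core of the interferon-stimulated response element (3.92%), the NF-kappaB consensus (4.18%) and the TATA element TATAAA (14.2%) were found in none of the 4 windows. A match is a match of letters only, and binding was not measured.

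The genes whose levels tracked each complement gene most closely were picked by Pearson correlation of log2 CPM over the 12 libraries, among 12122 genes outside the lists with a mean of at least 2 CPM. The libraries share depth and group, so these values describe the data and carry no p. For C3 they were Rnf41 (0.987), Ddx52 (0.978) and G3bp2 (0.968), and for Cfb the class I histocompatibility gene RT1-CE16 (0.989), the interferon-induced Ifitm3 (0.981) and Ankrd6 (0.979). For C1r they were Atp10a (0.952), Dram1 (0.948) and Ly6e (0.941), and for C1s Lmo2 (0.945), Ly6e (0.944) and Atp10a (0.927). C1r and C1s thus shared Atp10a and Ly6e, and C3 and Cfb shared none.

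For Cfi the closest were Zbtb16 (0.913), Pip5k1b (0.857) and Rundc3a (0.831), for Cd55 Srsf3 (0.971), Cldn4 (0.950) and Pxdc1 (0.943), and for Cd59 Rassf3 (0.852), Rxylt1 (0.840) and Sult4a1 (0.778). RT1-CE16 belongs to a family of near-identical genes, so its own counts are uncertain. With group means subtracted, Rnf41 was still the closest to C3 (0.975) and Srsf3 to Cd55 (0.950), while the closest to Cfb became Shfl (0.975), to C1r Loxl2 (0.951) and to Cfi Gm2a (0.911).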

How the data were processed

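RNA from 12 rat kidney libraries was sequenced, in 3 labelled groups of 4. The labels' protocols give QIAzol extraction of total RNA, a DNase step and a stranded NEBNext library kit. Genome build mRatBN7.2, Salmon 1.2.1, cutadapt 1.18, bcl2fastq 2.19 and R 3.5.1 are named per the submitters' processing notes. The step from transcripts to genes is not given in the sources used here.

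The authors deposited an estimated count for each Ensembl gene and library, made with the tools above and not normalised. Of the non-zero values 33.1% were not whole (tolerance 1e-06). They were rounded for the tests. The authors' second deposited table, a scaled signal, held the same counts times 1 factor per library (largest departure 0.0033 of a value). It gave symbols and coordinates, and its factors served as an alternative scaling.

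Genes were kept by filterByExpr (minimum count 10), which left 14664 genes with 99.95% of the reads. The 12 libraries were fitted together in edgeR 4.0.16 (R 4.3.3; TMM factors 0.887 to 1.11, glmQLFit and glmQLFTest, two-sided, no covariates, 9 residual degrees of freedom), with Benjamini-Hochberg adjustment over all 14664 genes at 0.05. Standard errors came from the F statistic, and log2 CPM used a prior count of 2. The common biological coefficient of variation was 0.317, and 4 replicates limited precision more than depth did, except for Cfi. The code was tested on simulated data. Alternatives were other scalings and filters, a replicate block, DESeq2 1.42.0, limma 3.58.1 voom, the compared groups alone, and leaving out each library with the tested genes kept. Each member has 1 row, so the choice among rows of 1 symbol had no alternative. Promoter windows came from RefSeq (GRCr8) for 4 members.

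The members and gene lists were chosen with earlier results of these data known. Named genes were all members, in each other list up to 4 genes per direction with the smallest p past the threshold plus C3ar1, C5, C4a, C1qa, Irf1 and Nfkb1, and the 3 genes most correlated with each member. C1qb, C1qc, C4b, Cfp, Thbd and Tnf were added after their values were seen, as were Shfl, Loxl2 and Gm2a. Some genes that the rule allows are not reported here.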

Additional observations from a re-analysis of the deposited data

Results flagged for a closer look

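The level of C3 in CPB+Nitrite 1 was 413 CPM, far from the other CPB+Nitrite libraries, at 9.89 to 26.2 CPM. Its gap to the nearest of them was 0.959 of the group's range in CPM, above Dixon's 95% critical value for 4 samples. In log2 CPM, CPB+Nitrite libraries 1 to 4 stood at 8.69, 3.32, 3.87 and 4.72. There the gap is a smaller part of the range, and the rule was not applied on that scale. Of 21 groups of member values tested 1 was marked in this way. Chance marks about 1 in 20 if values follow a normal distribution, which was not checked. The C3 comparisons with and without that library stand in the report. The same library had 112 CPM of summed urothelial markers, against 2.53 to 14.3 CPM in the rest of its group. No cause was tested.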

How the results depend on the processing

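Of 438 member log2 changes under the alternatives, 400 kept direction and side of the threshold, 28 lost a call, 7 gained one and 3 reversed. The reversed values were the Cd59 change in CPB+Nitrite over sham (0.04): -0.036 with total counts, and -0.0899 to 0.103 with 1 library left out (below 0 without sham 4, at -0.0207, and without CPB+Nitrite 3). The 5 members higher in CPB over sham were 4 to 5 throughout. In CPB+Nitrite over CPB, the 0 genes called became 2235 with DESeq2, 1 with limma voom and 0 to 2816 with 1 library left out, and the 0 members lower became 0 to 1. In CPB+Nitrite over sham, the 2 members higher became 1 with total counts, 0 with only the compared groups, 4 with DESeq2 and 0 to 5 with 1 library left out. The 705 genes called there became 2144, 2870 with limma voom, 0 with only the compared groups and 0 to 2980 with 1 library left out. The cause of these changes was not tested. With total counts the all-gene median in CPB over sham was -0.24 (-0.05 with TMM factors), with 2281 genes higher and 4269 lower. Deviations of same-numbered libraries from their group means correlated at -0.11 to 0.38. In CPB and sham this exceeded the best other pairing for replicates 1 (0.22 against 0.03), 3 (0.14 against 0.07) and 4 (0.07 against -0.002). It did not for replicate 2 (-0.10 against 0.27). In CPB+Nitrite and sham it did for replicate 2 alone (0.38 against 0.10), and in CPB+Nitrite and CPB for none. The labels name no pairs, so the numbers were not taken as pairs, but pairing is not settled by these values. With the replicate block, CPB+Nitrite over sham had 0 members higher and 28 genes called, and CPB over sham 4 members higher and 6229 genes. Depth limits Cfi alone among the members, at 10 to 58 reads.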
